A study of Mus musculus with 7 samples.

Results

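The genes described here carry glucose into the β-cell, return glucose phosphate to glucose, and read the flux of glucose into transcription. They are 8 of the 35013 gene symbols in the count table and were chosen by symbol: Slc2a2 and Slc2a1 (the glucose carriers GLUT2 and GLUT1), G6pc2 (the islet glucose phosphatase), Mlxipl and Mlx (ChREBP and its partner), and Txnip, Arrdc4 and Pklr, known as genes that ChREBP drives when glucose is high. The choice was made with earlier results of these data known. All 8 passed the filter on low counts in every comparison.

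Poly-A libraries were made from sorted β-cells of 7 mice, with 1 library per mouse. The 2 Aldh1a3 KO_db/db mice were Lepr db/db and Aldh1a3 fl/fl, the 2 db/db mice were Lepr db/db and Aldh1a3 fl/+, and the 3 db/+ mice were Lepr db/+ and Aldh1a3 fl/+. All 7 also carried RIP-Cre herr and tdT fl/+. RIP-Cre herr is a Cre under an insulin promoter with recombination in β-cells, so in every group Cre could delete at least 1 copy of Aldh1a3 and switch on the tdTomato reporter in these cells, and no group was without Cre. Without a working leptin receptor, db/db mice grow obese and turn diabetic, whereas db/+ mice stay lean. By the study's methods the line was on the B6.BKS(D)-Lepr db/J background, mice of both sexes were 16 to 20 weeks old, and they were fasted for 16 h before islets were isolated. Neither the sex and age of each mouse nor the gate of the sort for these libraries is stated in the sources used here.

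In the rodent β-cell, GLUT2 lets glucose in over a wide range of concentrations, and the first phosphorylation of glucose sets how much is metabolized. G6PC2 in the endoplasmic reticulum takes the phosphate off again and so lowers the net flux. ChREBP with MLX binds carbohydrate response elements, a pair of E-box-like boxes, when sugar phosphates accumulate. TXNIP, an α-arrestin that binds thioredoxin and lowers glucose uptake, its relative ARRDC4, and the liver-type pyruvate kinase encoded by Pklr are long-known products of such elements.

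The stretches below are 150 bases each, ending at position -56 from RefSeq start sites (GRCm38.p6), and are printed because each holds a match to the letters of an E-box or of a carbohydrate response element, which is in capitals. Txnip is shown from chr3:96557752-96557901 (plus strand), Pklr from chr3:89136418-89136567 (plus strand), Mlxipl from chr5:135089685-135089834 (plus strand) and Arrdc4 from chr7:68749294-68749443 (minus strand).
Txnip: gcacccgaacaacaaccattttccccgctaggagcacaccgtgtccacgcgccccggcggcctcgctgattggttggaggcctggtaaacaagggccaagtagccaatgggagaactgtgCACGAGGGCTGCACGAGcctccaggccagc
Pklr: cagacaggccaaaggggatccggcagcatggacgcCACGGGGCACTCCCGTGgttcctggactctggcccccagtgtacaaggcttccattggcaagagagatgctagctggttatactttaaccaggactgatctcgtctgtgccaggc
Mlxipl: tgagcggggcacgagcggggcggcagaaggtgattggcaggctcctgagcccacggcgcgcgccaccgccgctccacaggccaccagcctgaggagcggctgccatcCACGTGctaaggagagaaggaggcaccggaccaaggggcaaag
Arrdc4: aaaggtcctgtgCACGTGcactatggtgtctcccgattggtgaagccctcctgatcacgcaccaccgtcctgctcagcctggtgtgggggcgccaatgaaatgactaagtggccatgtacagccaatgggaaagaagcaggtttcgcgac
No exon of the gene itself lies in any of the 4 stretches. The Txnip stretch overlaps an exon of the antisense gene Gm15441, and the Pklr stretch lies between the gene's 2 starts, which are 481 bases apart.

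The 8 genes have 11 promoter windows in the RefSeq table, each from 250 bases before to 50 after a start. The paired form, CACGNG and CNCGNG parted by 5 bases, was searched on both strands and was found in 2 of them, at -85 to -69 from the start of Txnip and -170 to -154 from the downstream start of Pklr, and in 0.365% of all 32851 windows. The E-box CACGTG was found in 3 of them and in 7.15% of all windows: it lay at -193 to -188 in Arrdc4, at -98 to -93 from the upstream start of Mlxipl, and at -40 to -35 in Mlx. CCAAT, searched on both strands, was found in 7 of the 11 windows against 37.4% of all, and 6 of its matches were in Arrdc4. The windows of Slc2a2 and Slc2a1 held CCAAT alone of these letters, and those of G6pc2 held none of them. A match to letters is a description of the sequence, and these data do not show binding. Pklr, Mlxipl and G6pc2 have 2 starts each in that table, 481, 17001 and 8876 bases apart, and counts per gene do not separate them.

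**Figure D1:**
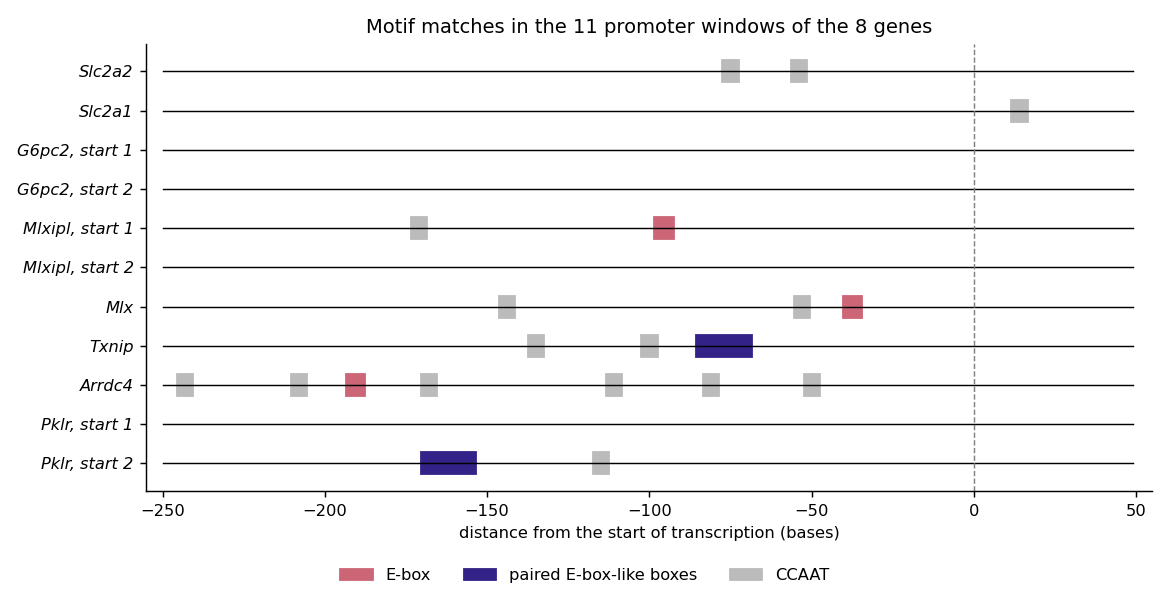
Position of each motif match in the 11 promoter windows of the 8 genes, with the distance from the start of transcription in bases on the x axis and 1 line per window. The paired boxes stand at -85 to -69 from the Txnip start and at -170 to -154 from the downstream (second) Pklr start, and Arrdc4 carries 6 CCAAT matches around 1 E-box.

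Total counts ran from 27496645 to 35852785, so that 3 counts, taken as the detection floor, were 0.0721 to 0.123 CPM. The 8 β-cell markers were above that floor in every library and summed to 391391 to 435663 CPM in db/+, 202585 to 226563 in db/db and 225530 to 293857 in KO_db/db. Aldh1a3 stood at 4.93 and 7.90 CPM in KO_db/db, 99.3 and 195 in db/db, and 0.0727 to 0.584 in db/+. A list of 22 acinar genes took 10.3% of the counts of KO_db/db mouse 1 and 1.11% of those of mouse 2, and at most 0.0311% elsewhere. Fold changes below are on the log2 scale with the first group named over the other, and adjusted p-values come from the quasi-likelihood test of edgeR, corrected over all genes by the method of Benjamini and Hochberg. They rest on the spread between 2 or 3 mice a group.

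β-cells of db/db mice had far less of both glucose carriers and more of the Txnip and Arrdc4 transcripts than db/+ cells. In db/db against db/+ 7 of the 8 genes passed the test (3 higher, 4 lower), where 37.8% of the 13406 genes tested did (19.9% higher, 18.0% lower). The libraries of the groups did not overlap for 7 of the 8, as for 63.1% of all genes. None of the 8 passed when KO_db/db was set against db/db, a comparison that called 0.319% of 13486 genes (0.126% higher, 0.193% lower). There, 5 of the 8 had an unadjusted p below 0.05, as did 20.9% of all genes, and 6 of the 8 did not overlap, as for 57.5% of all genes. DESeq2 called 5 of the 8 there, and 1369 of the 13486 genes in all. In KO_db/db against db/+, 7 of the 8 passed (2 higher, 5 lower), where 38.4% of 13228 genes did (20.5% higher, 17.9% lower), and 7 did not overlap, as for 64.0% of all genes. The comparisons share libraries, so their counts are not independent of each other. Summed markers of some other cell types did not overlap between db/db and db/+. The db/db libraries had 2081 to 2537 CPM over 5 alpha cell markers and 87.7 to 170.2 over 3 delta cell markers. They had 277 to 419.7 CPM over 5 ductal markers and 1.303 to 2.45 over 5 stellate and fibroblast markers. The db/+ libraries had 1053 to 1683, 378 to 2332, 178 to 194 and 0.255 to 0.901 CPM, and the KO_db/db libraries 1174 to 1633, 518 to 647, 269 to 331 and 0.559 to 1.06. In db/db the alpha sum was mostly Ttr, at 1925 and 1727 CPM, against 502 to 674 in db/+. Gcg, another of the alpha markers, was at 608 and 351 CPM in db/db and overlapped db/+ (378 to 1178). In KO_db/db Gcg was at 1017 and 620 CPM. The ductal sum was mostly Krt7, at 254 and 328 CPM in db/db and 173 to 191 in db/+. The part of other cell types in the differences below was not tested.

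**Figure D2:**
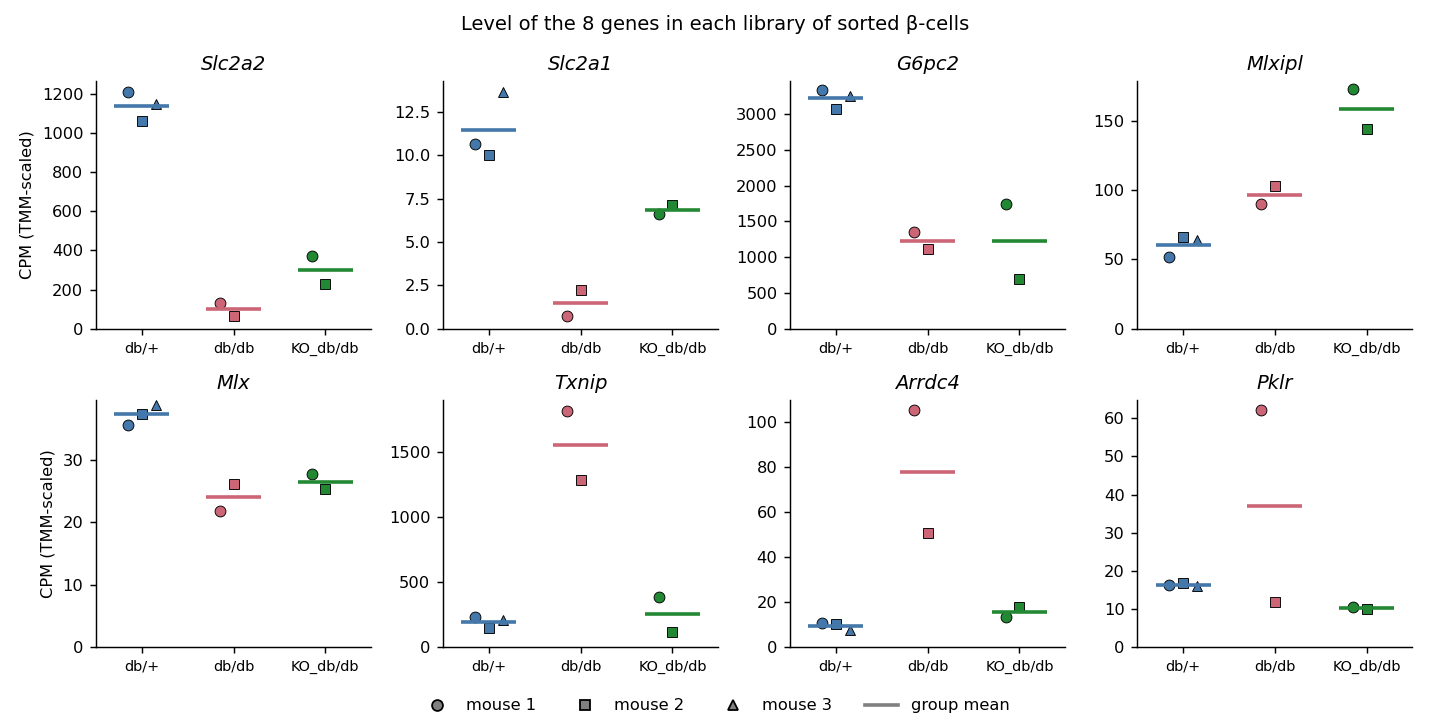
CPM of the 8 genes (y axis, scaled by TMM, each panel on its own scale from 0) in each library of db/+, db/db and KO_db/db, with 1 point per mouse and a bar at the group mean. Slc2a2 stands at 1059 CPM or more in db/+ and at 131 CPM or less in db/db, and Txnip reaches 1284 CPM or more in db/db alone.

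Slc2a2 (ENSMUSG00000027690.13, chromosome 3, 28697903 to 28731359, plus strand, 11 exons in its longest coding transcript) encodes GLUT2, the main glucose carrier of mouse β-cells. Its level was 1207, 1059 and 1146 CPM in db/+, 131 and 66.7 CPM in db/db, and 371 and 229.9 CPM in KO_db/db. No 2 groups overlapped, and KO_db/db lay between the others. Slc2a2 was 11.7-fold lower in db/db than in db/+ (log2 fold change -3.55, SE 0.31, adjusted p = 0.000766), the 13th largest fall of 7799 genes with a mean of at least 10 CPM. Against db/db, the KO_db/db level was 3.07-fold as high (1.62, SE 0.40) and did not pass the threshold (adjusted p = 0.134). Against db/+, Slc2a2 was still 3.76-fold lower in KO_db/db (-1.91, SE 0.24, adjusted p = 0.00224). The fall in db/db was -4.12 without db/db mouse 1 and -3.15 without mouse 2, and passed the test both ways. In bulk libraries, fewer cells that express a gene and less RNA per cell cannot be told apart, here and for every gene below.

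Set against other β-cell transcripts of the same library, Slc2a2 was low as well. For each count of Slc2a2 there were 215 to 258 counts of Ins2 in db/+, 1173 and 2392 in db/db, and 539 and 657 in KO_db/db. The ratio of Slc2a2 to G6pc2 was 0.362, 0.344 and 0.352 in db/+, 0.0967 and 0.0600 in db/db, and 0.212 and 0.328 in KO_db/db. The groups did not overlap in either ratio. By an exact two-sided permutation test of the log ratio, p was 0.1 for both ratios against db/+, the smallest that 2 libraries against 3 allow.

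Slc2a1 (ENSMUSG00000028645.11, chromosome 4, 119108711 to 119137983, plus strand) encodes GLUT1, the basal carrier of many cell types and a minor one in mouse β-cells. It was read at 260, 276 and 397 counts in db/+, 24 and 93 in db/db, and 162 and 294 in KO_db/db, which is 10.7, 10.04 and 13.6 CPM, 0.711 and 2.24 CPM, and 6.60 and 7.15 CPM. The groups did not overlap, in the same order as for Slc2a2. Slc2a1 was 7.78-fold lower in db/db than in db/+ (-2.96, SE 0.47, adjusted p = 0.00405). The difference was -2.38 without db/db mouse 1 and -4.04 without mouse 2. In KO_db/db it was 4.65-fold as high as in db/db (2.22, SE 0.55, adjusted p = 0.135), which did not pass. It was 1.66-fold lower in KO_db/db than in db/+ (-0.73, SE 0.19, adjusted p = 0.0224), a call that was lost without either KO_db/db mouse (adjusted p = 0.0945 without mouse 1 and 0.0619 without mouse 2). Endothelial cells, which also express Slc2a1, had a summed level of 7 markers of 13.0 to 51.1 CPM in db/+, 20.1 to 24.9 in db/db and 14.2 to 14.8 in KO_db/db. Their part in the Slc2a1 difference was not tested.

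Per kb of the longest coding transcript, Slc2a2 averaged 204 CPM per kb in db/+ and Slc2a1 3.51. In db/db the levels per kb were 17.7 for Slc2a2 and 0.452 for Slc2a1, and in KO_db/db 54.0 and 2.11. The Slc2a2 transcript was thus more abundant than that of Slc2a1 in each group. Slc2a3, the neuronal carrier, had at most 7 counts in a library. Slc2a4, the insulin-dependent carrier of muscle and fat, had 182 counts in db/db mouse 1 and at most 3 in any other.

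G6pc2 (ENSMUSG00000005232.11, chromosome 2, 69211073 to 69227841, plus strand) was the most abundant of the 8 genes per kb in every library. Its level was 3332, 3078 and 3254 CPM in db/+, 1354 and 1112 in db/db, and 1747 and 700.2 in KO_db/db. Both diabetic groups lay below db/+ and overlapped each other. G6pc2 was 2.66-fold lower in db/db than in db/+ (-1.41, SE 0.16, adjusted p = 0.00142) and 2.61-fold lower in KO_db/db (-1.39, SE 0.38, adjusted p = 0.0287). The db/db call held without any 1 library in the fit of these groups, but with all groups in 1 fit it was lost without db/db mouse 1 (adjusted p = 0.0566), db/db mouse 2 (adjusted p = 0.1004) or db/+ mouse 1 (adjusted p = 0.0518). The KO_db/db call depended on the libraries: the log2 fold change was -2.20 without KO_db/db mouse 1 and -0.88 (adjusted p = 0.0601) without mouse 2, and leaving out any 1 of the db/+ mice also ended it (adjusted p = 0.0547 to 0.0731). Between KO_db/db and db/db the difference was 0.01, with a 95% interval from -1.14 to 1.15. That interval spans changes of over 2-fold either way, so a difference in G6pc2 was not measurable with these 4 libraries. The liver paralog G6pc had at most 2 counts in a library, and the ubiquitous G6pc3 averaged 20.2, 19.3 and 16.9 CPM per kb in db/+, db/db and KO_db/db, with no call.

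Mlxipl (ENSMUSG00000005373.13, chromosome 5, 135089890 to 135138382, plus strand) encodes ChREBP. Its level was 51.6, 66.0 and 64.0 CPM in db/+, 90.1 and 103 in db/db, and 173 and 144 in KO_db/db. The groups rose in that order without overlap, so the highest ChREBP transcript levels were in the KO_db/db libraries. Mlxipl was 1.56-fold higher in db/db than in db/+ (0.65, SE 0.14, adjusted p = 0.0128, and 0.0521 without db/db mouse 2) and 2.62-fold higher in KO_db/db (1.39, SE 0.14, adjusted p = 0.00117, called without any 1 library). Between KO_db/db and db/db it differed by 0.73 (SE 0.17, adjusted p = 0.123), with both KO_db/db mice above both db/db mice.

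Mlx (ENSMUSG00000017801.15, chromosome 11, 101087277 to 101092207, plus strand) encodes the partner that ChREBP needs to bind DNA. Its level was 35.5, 37.3 and 38.7 CPM in db/+, 21.8 and 26.2 in db/db, and 27.6 and 25.4 in KO_db/db. It fell by 0.66 (SE 0.13, adjusted p = 0.0088) in db/db and by 0.48 (SE 0.10, adjusted p = 0.0117) in KO_db/db against db/+, and its levels in the diabetic groups overlapped. The fall in db/db depended on the TMM scaling. Scaled to total counts alone, Mlx was at 30.8, 32.8 and 34.1 CPM in db/+. On that scale it was at 26.0 and 32.0 CPM in db/db, which overlapped db/+, and at 24.7 and 29.1 in KO_db/db. The KO_db/db call held without any 1 library in the fit of these groups, but was lost with the mouse number as a block (adjusted p = 0.0563) and, with all groups in 1 fit, without either KO_db/db mouse or without db/+ mouse 2 or 3 (adjusted p = 0.0537 to 0.112). On the TMM scale Mlxipl and Mlx thus moved in opposite directions. The ratio of Mlxipl to Mlx counts, free of scaling, was 1.45, 1.77 and 1.65 in db/+. This ratio was 4.13 and 3.93 in db/db, and 6.25 and 5.67 in KO_db/db. Mlxip, which encodes the related factor MondoA, averaged 5.01, 6.07 and 6.13 CPM per kb in db/+, db/db and KO_db/db and was not called. Mlx and Pklr each overlap a gene on the other strand, Psmc3ip with 189 counts and Hcn3 with 1058 counts over the 7 libraries, and the strand used in counting is not stated.

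Txnip (ENSMUSG00000038393.14, chromosome 3, 96557957 to 96561883, plus strand) carries the paired boxes printed above. Its level was 233, 144 and 208 CPM in db/+, 1819 and 1284 in db/db, and 389 and 119.5 in KO_db/db. Both db/db libraries stood above all others, and the KO_db/db libraries lay on either side of the db/+ libraries. Txnip was 7.80-fold higher in db/db than in db/+ (2.96, SE 0.24, adjusted p = 0.000681), the 57th largest rise of 7799 genes. It was 6.03-fold lower in KO_db/db than in db/db (-2.59, SE 0.60), which did not pass (adjusted p = 0.124). Without KO_db/db mouse 1 that difference was -3.69 and passed (adjusted p = 0.0152), and without mouse 2 it was -1.97 (adjusted p = 0.0679). Against db/+, the KO_db/db difference was 0.39 with a 95% interval from -0.69 to 1.48. It changed sign to -0.71 without KO_db/db mouse 1 and was 1.00 without mouse 2 (adjusted p = 0.0331), so no direction was established. Mouse 1 is the library with 10.3% of counts on acinar genes; the part of that in its Txnip level was not tested.

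Arrdc4 (ENSMUSG00000042659.15, chromosome 7, 68736995 to 68749241, minus strand) encodes another α-arrestin, with the E-box shown above. It stood at 10.7, 10.3 and 7.77 CPM in db/+, 105 and 50.5 in db/db, and 13.5 and 17.8 in KO_db/db. The db/db libraries were again above all others, and the KO_db/db libraries were just above db/+. Arrdc4 was 7.94-fold higher in db/db than in db/+ (2.99, SE 0.31, adjusted p = 0.00109), 2.37 on the log2 scale without db/db mouse 1 and 3.42 without mouse 2. In KO_db/db it was 4.91-fold lower than in db/db (-2.29, SE 0.38, adjusted p = 0.0868), which did not pass, and 1.64-fold higher than in db/+ (0.72, SE 0.19, adjusted p = 0.0263). The call against db/+ was lost without KO_db/db mouse 2 (adjusted p = 0.149) or db/+ mouse 2 (adjusted p = 0.0567). Txnip and Arrdc4 kept a similar ratio of counts in db/+ (21.8, 14.0 and 26.8) and db/db (17.3 and 25.4), while the KO_db/db libraries had 28.8 and 6.72.

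Pklr (ENSMUSG00000041237.12, chromosome 3, 89136142 to 89146784, plus strand) encodes the liver and red cell pyruvate kinase, with separate first exons in those tissues. Its level was 16.2, 16.9 and 16.02 CPM in db/+, 62.3 and 11.9 in db/db, and 10.5 and 9.89 in KO_db/db. The db/db libraries lay on either side of db/+, and those of KO_db/db were below all others. Scaled to total counts alone, db/db mouse 2 had 14.6 CPM, within the db/+ range of 14.0 to 14.8. The KO_db/db libraries were still lowest on that scale, at 9.38 and 11.4 CPM. In db/db against db/+ the difference was 1.15 (SE 0.57, adjusted p = 0.154, or 0.0281 with no filter on low counts). It rested on db/db mouse 1: it was -0.48 (adjusted p = 0.0626) without that mouse and 1.89 (adjusted p = 0.000524) without mouse 2. Pklr was 1.60-fold lower in KO_db/db than in db/+ (-0.68, SE 0.12, adjusted p = 0.00668, or 0.379 with all 7 libraries in 1 fit), and differed by -1.85 (SE 0.74, adjusted p = 0.241) from db/db, or by -0.22 without db/db mouse 1. The sum of 4 erythroid markers was 0.533 to 2.21 CPM in db/db, 1.72 to 7.85 in db/+ and 2.38 to 10.4 in KO_db/db, and that of 3 liver and kidney markers was 1.21 to 5.43, 1.37 to 4.71 and 2.53 to 34.6 CPM. Both sums were lowest in db/db mouse 1, the library with the most Pklr. The part of such cells in the Pklr levels was not tested. Pkm, the pyruvate kinase of most tissues, averaged 252, 266 and 228 CPM per kb in db/+, db/db and KO_db/db, against 5.64, 12.8 and 3.51 for Pklr, and was not called.

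**Figure D3:**
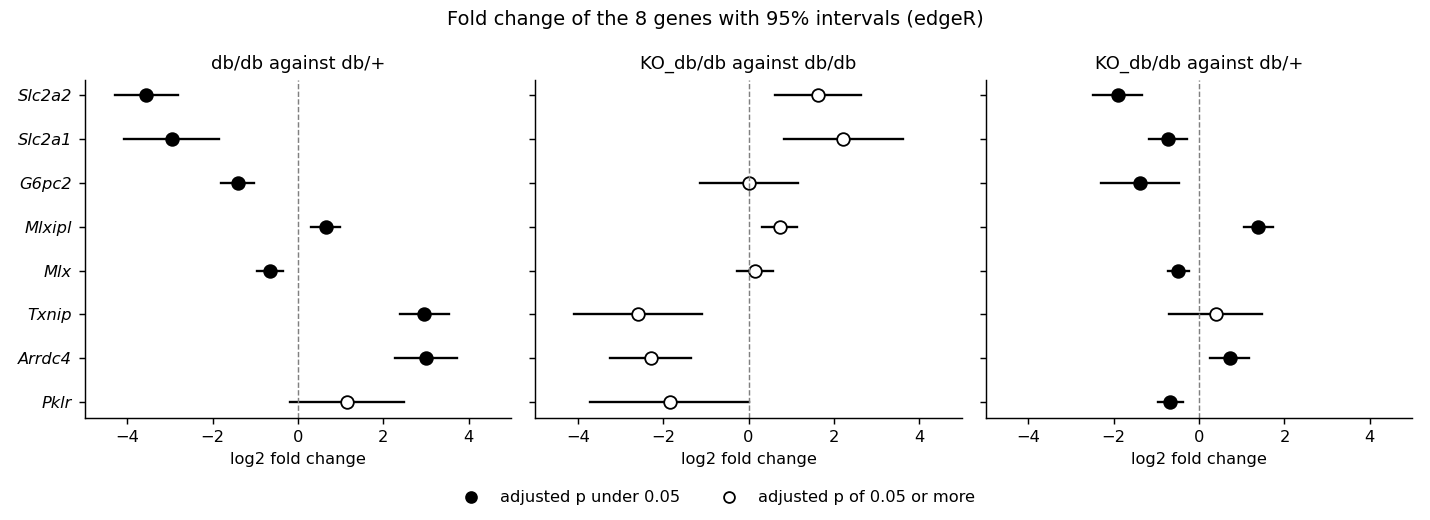
Log2 fold change (x axis) of the 8 genes in the 3 comparisons, with bars for the 95% interval of the edgeR fit and filled points for an adjusted p below 0.05. The carriers lie left of 0 and Txnip and Arrdc4 right of 0 in db/db against db/+, the same 4 genes lie on the other side in KO_db/db against db/db with open points, and G6pc2 stands at 0.01 there.

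Within a library the genes of glucose entry and of the response to glucose can be set against each other without any scaling. There were 0.193, 0.136 and 0.181 counts of Txnip for each count of Slc2a2 in db/+, 13.9 and 19.3 in db/db, and 1.05 and 0.520 in KO_db/db. The groups did not overlap. The log2 ratio was 6.60 higher in db/db than in db/+ and 2.13 higher in KO_db/db than in db/+, each with an exact two-sided permutation p of 0.1, the smallest possible. It was 4.47 lower in KO_db/db (mean -0.44) than in db/db (mean 4.03), with an exact permutation p of 0.333, the smallest that 2 against 2 allow. Counts of Txnip per count of Mlxipl were 4.51, 2.188 and 3.25 in db/+, 20.2 and 12.5 in db/db, and 2.26 and 0.831 in KO_db/db. The KO_db/db libraries had the highest ChREBP transcript levels. Their Txnip levels, 389 and 119.5 CPM, lay on either side of those of db/+ (144 to 233 CPM). 10 such ratios were computed, and no p could pass 0.05 in this design.

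**Figure D4:**
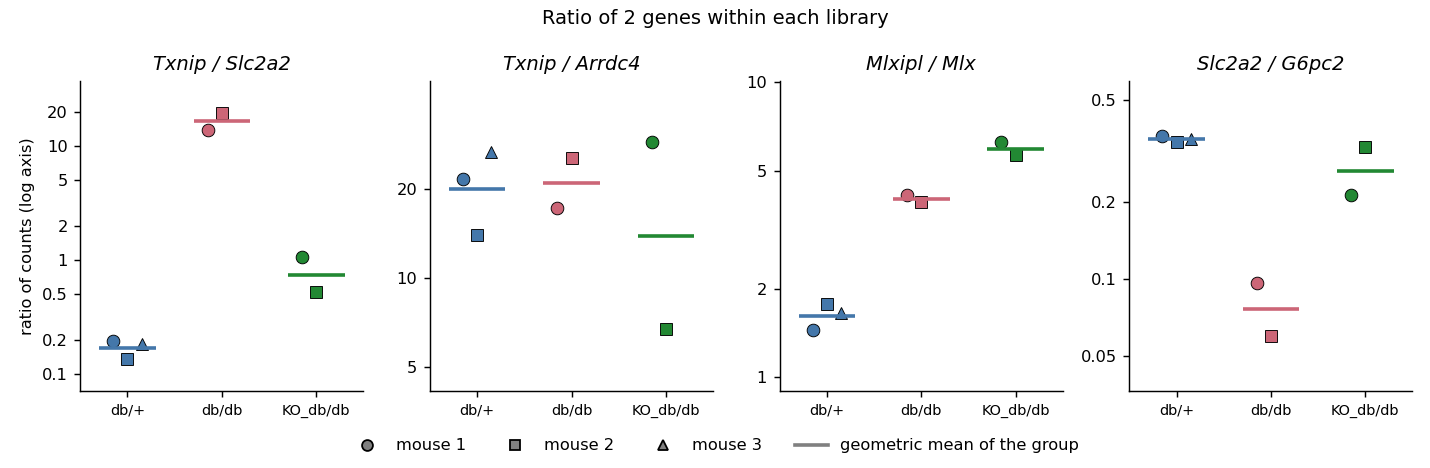
Ratio of the counts of 2 genes within each library (y axis, log scale) for 4 pairs, with 1 point per mouse and a bar at the geometric mean of the group. Txnip per Slc2a2 separates db/+ (0.136 to 0.193), KO_db/db (0.520 and 1.05) and db/db (13.9 and 19.3), and Txnip per Arrdc4 does not separate the groups.

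Ordered per kb of coding transcript, the 8 genes in db/+ ran from G6pc2 (1703 CPM per kb) through Slc2a2 (204), Txnip (69.0), Mlx (18.9), Mlxipl (16.7), Pklr (5.64) and Slc2a1 (3.51) to Arrdc4 (2.46), and Mlx and Mlxipl overlapped between libraries. In db/db the order was G6pc2 (652), Txnip (549), Mlxipl (26.6), Arrdc4 (19.9), Slc2a2 (17.7), Pklr (12.8), Mlx (12.2) and Slc2a1 (0.452). There G6pc2 and Txnip overlapped each other and no other gene, Slc2a1 overlapped none, and the libraries of the genes from Mlxipl to Mlx overlapped their neighbours. In KO_db/db it was G6pc2 (647), Txnip (90.0), Slc2a2 (54.0), Mlxipl (43.7), Mlx (13.5), Arrdc4 (4.01), Pklr (3.51) and Slc2a1 (2.11), with overlap from Txnip to Mlxipl and between Arrdc4 and Pklr. Slc2a2 thus went from the second place to the fifth in db/db and the third in KO_db/db.

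Of 20 other genes known as ChREBP targets that were tested in db/db against db/+, 12 rose and 2 fell (19.9% and 18.0% over all genes), with a median log2 fold change of 1.24 against 0.01 over all genes tested. This list and the lists below were chosen with earlier results of these data known. The transcription factor genes Bhlhe40 (2.12, SE 0.28, adjusted p = 0.00235) and Klf10 (1.90, SE 0.27, adjusted p = 0.003) and the G protein regulator gene Rgs16 (1.77, SE 0.35, adjusted p = 0.00916) rose. In KO_db/db against db/db none of 21 passed the test, where 0.319% of all genes did. Their median was -0.52 against -0.02 over all genes, and 4 of the 21 were above 0. These differences were -1.49 for Bhlhe40, -1.19 for Klf10 and -3.17 for Rgs16, with adjusted p from 0.0844 to 0.173. Against db/+, KO_db/db had 5 of 20 higher and 1 lower (20.5% and 17.9% over all genes), the latter being Rgs16 (-1.37, SE 0.26, adjusted p = 0.00846), with a median of 0.48.

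**Figure D5:**
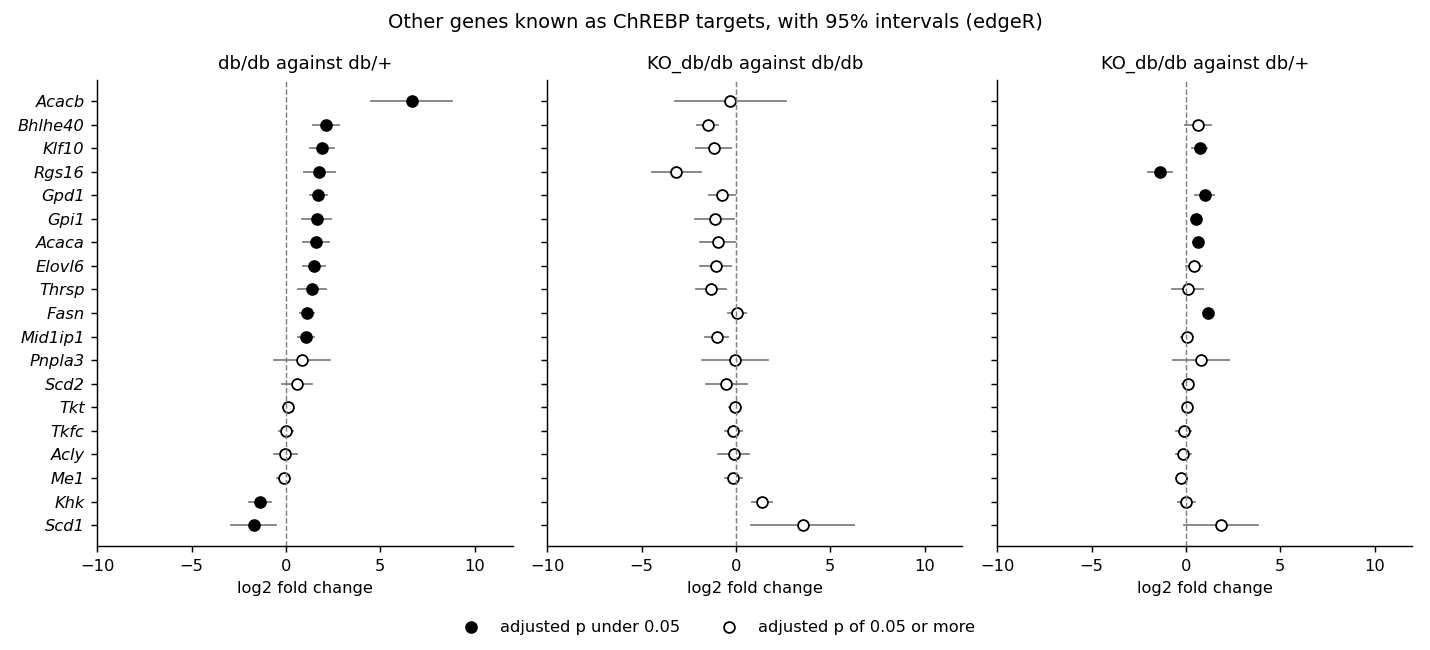
Log2 fold change (x axis) of 19 of these genes in the 3 comparisons, ordered by db/db against db/+, with bars for the 95% interval and filled points for an adjusted p below 0.05. In db/db against db/+ 13 points are filled, 11 of them right of 0, and none is filled in KO_db/db against db/db.

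Other genes of glucose entry and phosphorylation moved in both directions. Of 10 other hexose carriers tested in db/db against db/+, 3 rose and none fell (19.9% and 18.0% over all genes), with a median of 0.47. Slc5a10, a sodium-linked sugar carrier best known from kidney, was at 0.451, 0.509 and 0.722 CPM in db/+, 290.4 and 42.3 in db/db, and 0.285 and 0.0243 in KO_db/db, the last being 1 count. It rose by 8.16 in db/db (SE 0.90, adjusted p = 0.00134), and KO_db/db against db/db did not pass (adjusted p = 0.0805). Of 10 genes of glucose phosphorylation and its reversal, 4 rose and 1 fell, against the same shares over all genes, with a median of -0.23. Pfkfb3, which makes the sugar bisphosphate that speeds glycolysis, was at 3.20, 4.04 and 1.89 CPM in db/+, 91.8 and 34.5 in db/db, and 6.43 and 7.49 in KO_db/db. It was 4.35 higher in db/db (SE 0.46, adjusted p = 0.00122) and 1.20 higher in KO_db/db (SE 0.32, adjusted p = 0.025) than in db/+. Its paralog Pfkfb2 fell by 1.08 (adjusted p = 0.00102) in db/db and by 0.72 (adjusted p = 0.00224) in KO_db/db against db/+. Slc37a4, which carries glucose phosphate into the endoplasmic reticulum, rose by 0.71 in db/db (adjusted p = 0.0458). In KO_db/db against db/db, 0 of the 10 carriers and 0 of the 10 phosphorylation genes passed (0.319% over all genes), with medians of -0.65 and -0.45.

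Among the partners and relatives of these proteins, 5 of 11 genes of the Mondo, Max and Myc network rose in db/db against db/+ and none fell (19.9% and 18.0% over all genes), with a median of 0.40. The Max partners Mga (0.92, adjusted p = 0.00144) and Mxd4 (0.56, adjusted p = 0.0127) were also higher in KO_db/db against db/+, by 0.50 and 0.52 (adjusted p = 0.0144 and 0.0072). Of 8 α-arrestin and thioredoxin genes, 3 rose and 1 fell in db/db, against the same shares over all genes. Arrdc3, an α-arrestin that turns over cell surface receptors, rose by 0.88 (adjusted p = 0.0393) and Arrdc2 by 1.21 (adjusted p = 0.0262). Arrdc1 was not called in any comparison and Arrdc5 had 0 counts. Txnrd3, a thioredoxin reductase gene, rose by 1.03 (adjusted p = 0.046), and Txn2, which encodes the mitochondrial thioredoxin, fell by 0.39 (adjusted p = 0.0232).

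The genes whose log2 CPM ran most like that of Slc2a2 over the 7 libraries, among 7682 genes with a mean of at least 10 CPM, were Selenot, Cuta and Cerk, each with a Pearson r of 0.996. For Txnip they were Sbf1 (0.993), Eri3 (0.990) and Rgs2 (0.970). Pearson r takes no account of the size of a change. Selenot ran from 117 to 369 CPM, Cuta from 14.5 to 27.7 and Cerk from 31.4 to 76.0, against 66.7 to 1207 for Slc2a2. Sbf1 ran from 14.6 to 20.4 CPM, Eri3 from 25.2 to 42.8 and Rgs2 from 78.2 to 471, against 119.5 to 1819 for Txnip. The r of Txnip with Arrdc4 was 0.877. That of Slc2a2 was 0.885 with Mlx, 0.836 with G6pc2, -0.736 with Txnip and -0.867 with Arrdc4. The 7 points share their groups, so these values describe the pattern and are given without a test.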

How the data were processed

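RNA was taken from sorted β-cells of 7 mice, and samples were grouped by the genotype and mouse in their titles. The authors deposited the estimated counts of kallisto per gene symbol as whole numbers, without normalization. The submitters' processing notes name bcl2fastq 2.19, kallisto 0.44.0 and GRCm38, and the annotation release is not given in the sources used here. All 7 columns of the table were used, and 0 were left out. Replicates differed by more than sampling noise, so each library was kept as its own replicate.

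Each pair of groups was fitted to these counts in R 4.3.3 with edgeR 4.0.16: filterByExpr (minimum count 10), TMM scaling and the quasi-likelihood test, with p-values adjusted by Benjamini-Hochberg over all genes tested and called below 0.05. Standard errors were obtained from the fold change and its F statistic. CPM (counts scaled to library size) used TMM factors over the 7 libraries. Alternatives were RLE scaling, DESeq2 1.42.0 (named in the study's methods), no filter, all libraries in 1 fit, the mouse number as a block, acinar genes or Ins1 and Ins2 left out, and each library left out in turn. The fits were tested on counts simulated from the same kind of model, with the spread fitted to each gene. Of 200 genes given a log2 change of 2, 198 were recovered in db/db against db/+. In KO_db/db against db/db 188 were recovered, and in KO_db/db against db/+ 196. In the same order, 17, 22 and 17 unchanged genes were called as well.

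The 8 genes, the pathway lists and the marker lists were chosen with earlier results of these data known. Named genes are the 8, their paralogs, up to 4 called genes of each list in db/db against db/+ with a mean of at least 5 CPM (those with the largest change), and the 3 genes most like Slc2a2 and Txnip by Pearson r among genes with a mean of at least 10 CPM. 2 genes that this rule names are not reported here. Coordinates come from GENCODE M21 on GRCm38, in which 34222 of 35013 symbols were found, and promoter sequences from RefSeq on GRCm38.p6.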

Additional observations from a re-analysis of the deposited data

How the results depend on the processing

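The number of the 8 genes called in db/db against db/+ stayed between 6 and 8 under every alternative. In KO_db/db against db/db it was 0 with edgeR on these 4 libraries, 5 with DESeq2, 6 with no filter on low counts and 5 with all 7 libraries in 1 fit, from 0 to 3 when 1 library of the pair was left out, and from 1 to 5 when 1 library was left out with all groups in 1 fit, which changes both choices at once. Slc2a2, Slc2a1, Mlxipl, Txnip and Arrdc4 were called with DESeq2, with no filter and with all 7 libraries, and Pklr with no filter alone of these. The table-wide count moved likewise, from 43 genes to 1369, 1570 and 818, to 0 without db/db mouse 1 (153 with all groups in 1 fit) and to 212 without db/db mouse 2 (1537 with all groups in 1 fit). In KO_db/db against db/+ it was 7, but 4 with all 7 libraries in 1 fit, where Slc2a1, Arrdc4 and Pklr were lost, 5 to 6 when 1 library of the pair was left out, and 2 to 7 when 1 library was left out with all groups in 1 fit. The causes of these shifts were not tested.

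With the mouse number as a replicate block, the count in KO_db/db against db/+ was 4, with Slc2a1, Mlx and Arrdc4 lost. The counts of the other comparisons stayed at 7 and 0. Correlations of the deviations ran from -0.108 to 0.0815 between samples with the same number, and from -0.0815 to 0.108 between the others. With 2 or 3 libraries a group, these values cannot tell whether samples with the same number share more than that number.

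3 differences changed sign. Pklr in db/db against db/+ was called with no filter (1.15, adjusted p = 0.0281) and ran from -0.48 to 1.91 when 1 library was left out. G6pc2 in KO_db/db against db/db was -0.0024 with no filter and -0.14 with the replicate block, and ran from -0.81 to 0.53 when 1 library was left out. Txnip in KO_db/db against db/+ ran from -0.71 to 1.00. A lone library remaining in a group was assumed to vary like the others. Slc2a1 in db/db mouse 1 rests on 24 counts, the smallest count of any of the 8 genes.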

Other observations

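The db/db libraries differed from each other more than other replicates did: over 12326 genes the median of the squared difference in counts was 18.9 times what sampling noise gives, against 5.39 to 10.8 in the other replicate pairs. The genes given here were chosen after their values were seen. Mouse 1 had 62.3 CPM of Pklr where mouse 2 had 11.9, and 105 CPM of Arrdc4 where mouse 2 had 50.5. It also held 290.4 CPM of the sugar carrier gene Slc5a10 against 42.3, 91.8 CPM of Pfkfb3 against 34.5 and 182 counts of Slc2a4 against 3. Mouse 2 was higher in Slc2a1, at 2.24 CPM against 0.711, and lower in Slc2a2, at 66.7 CPM against 131. Fasn, a fatty acid synthesis gene, was lower in mouse 1, at 117 CPM against 159.7. With 1 library per mouse, these values describe 2 mice and carry no test.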
